A study of Mus musculus with 8 samples.

Results

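The quantity described here is the difference between 2 mouse embryonic stem (ES) cell lines in their response to 4-hydroxytamoxifen (4OHT), the drug that commonly activates Cre recombinase fused to an oestrogen receptor domain. RNA was sequenced from haemogenic endothelium made by differentiating ES cells of strain C57BL/6. One line carried lox sites at both copies of Hdac1 (Hdac1 lox/lox) and the other at both copies of Hdac2 (Hdac2 lox/lox), and each was labelled as given 4OHT or its solvent ethanol (EtOH). Each of the 4 groups held 2 libraries, so all 8 of the 8 libraries entered the contrast, and 14179 of 41128 genes had enough reads to be tested. The contrast is the log2 fold change of 4OHT over EtOH in the Hdac1 line minus the same fold change in the Hdac2 line. A positive value means a higher response in the Hdac1 line, whichever line moved. The 2 responses use no library in common. No label says that replicates were separate cultures, that a line was more than 1 clone, or which Cre was present, so the p-values reflect the scatter of these libraries alone, and that scatter could be technical. No lox-free line given 4OHT was analysed here, and responses to the ligand and to loss of the gene cannot be told apart. Neither targeted gene had a lower count per gene by test with 4OHT in its own line, as described with the targets.

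HDAC1 and HDAC2 are closely related class I histone deacetylases. They remove acetyl groups from lysines and act as interchangeable or paired catalytic subunits of the Sin3, NuRD and CoREST repressor complexes. Haemogenic endothelium is the vessel lining from which the first blood cells bud in the endothelial-to-haematopoietic transition: endothelial genes are shut off there while blood transcription factors such as RUNX1, GFI1 and GFI1B take over, and GFI1 and GFI1B recruit CoREST-type complexes. TGF-β, one of the signals active in endothelium, is released from latent complexes, binds a pair of type II and type I receptors, and acts through SMAD2 and SMAD3 joined to SMAD4.

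Levels are TMM-scaled CPM (a gene's share of the library's counts on a scale common to all libraries), total counts ran from 10215792 to 19552380 per library, and all 10 markers fixed for haemogenic endothelium were present in all 8 libraries, from Gfi1b at 6.49 CPM upwards. Libraries are named as labelled, and 2 features of them touch the results below. First, in the Hdac1 line the libraries did not sort by agent. At the 2680 genes called higher with 4OHT in the Hdac2 line, EtOH replicate 2 lay above EtOH replicate 1 for 90% of genes (median log2 ratio 0.56), and 4OHT replicate 1 lay above 4OHT replicate 2 for 81.2% (median 0.33). EtOH replicate 2 and 4OHT replicate 1 differed there by a median of only 0.02. Second, the summed level of 4 Y-linked genes was 74.9 to 102 CPM in the Hdac1 line and 1.01 to 1.42 CPM in 3 libraries of the Hdac2 line, but 16.4 CPM in its EtOH replicate 2. Results are therefore also given without that library, and the part of either feature in them was not tested. In bulk samples, fewer cells of a type and less RNA per cell cannot be told apart.

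**Figure D1:**
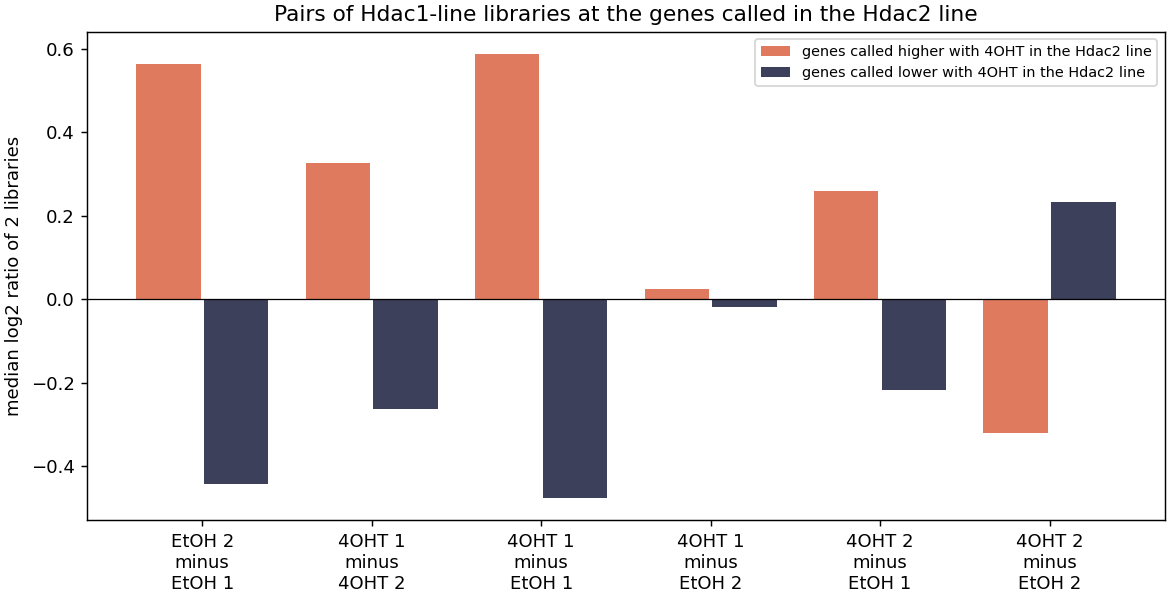
Median log2 ratio (vertical axis) of each pair of Hdac1-line libraries (horizontal axis) over the 2680 genes called higher (orange) and the 2433 called lower (dark) with 4OHT in the Hdac2 line. The ratio of EtOH replicate 2 to EtOH replicate 1 is as large as any ratio of a 4OHT to an EtOH library except 4OHT replicate 1 over EtOH replicate 1, and the ratio of 4OHT replicate 2 to EtOH replicate 2 points the other way.

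The lines differed first in the size of the response. The median absolute log2 fold change was 0.20 in the Hdac1 line and 0.61 in the Hdac2 line. Median standard errors were 0.25 and 0.26, but the fit estimates a gene's spread from all groups together, so they do not compare the lines. Between EtOH replicates the median absolute log2 ratio was 0.39 in the Hdac1 line and 0.20 in the Hdac2 line. Between 4OHT replicates it was 0.30 and 0.19. A change of at least 2-fold was seen at 672 genes in the Hdac1 line and 3973 in the Hdac2 line, and 79.5% of all genes moved further in the Hdac2 line. In edgeR's quasi-likelihood test the Hdac2 line had 5113 genes past an adjusted p of 0.05, and 116, 0, 826 and 91 without its EtOH replicate 1, EtOH replicate 2, 4OHT replicate 1 and 4OHT replicate 2. The Hdac1 line had 0 (smallest adjusted p = 0.533), with 947 at an unadjusted p under 0.05, 32 called by DESeq2 and 0 by limma-voom. The difference between responses has a wider error than either, with a median standard error of 0.36. Tested directly, it passed for 4 genes, 0.0282% of those tested: Sprr2b, Hand2, Slc6a9 and Car4. At an unadjusted p under 0.05 the response was higher in the Hdac1 line at 1769 genes (12.5%) and lower at 2204 (15.5%). These shares are the background for the counts below of genes with p under 0.05 in the fit of all 8 libraries. Fits without a library have other shares of all genes, so their list counts are not to be read against these.

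The count of 4 rests on the libraries and the tool. Without EtOH replicate 1 of the Hdac1 line, 3740 genes were called, without its EtOH replicate 2 it was 12, and without its 4OHT replicate 1 it was 3. Without its 4OHT replicate 2, or without any 1 of the 4 Hdac2-line libraries (the Y-positive EtOH replicate 2 among them), edgeR called 0 genes, with 2213 to 3086 at an unadjusted p under 0.05. With all libraries, DESeq2 called 1781 genes, limma-voom 1 and edgeR without a filter on low counts 1187. Hand2, Sprr2b, Slc6a9 and Car4 kept their direction under each of these settings.

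**Figure D2:**
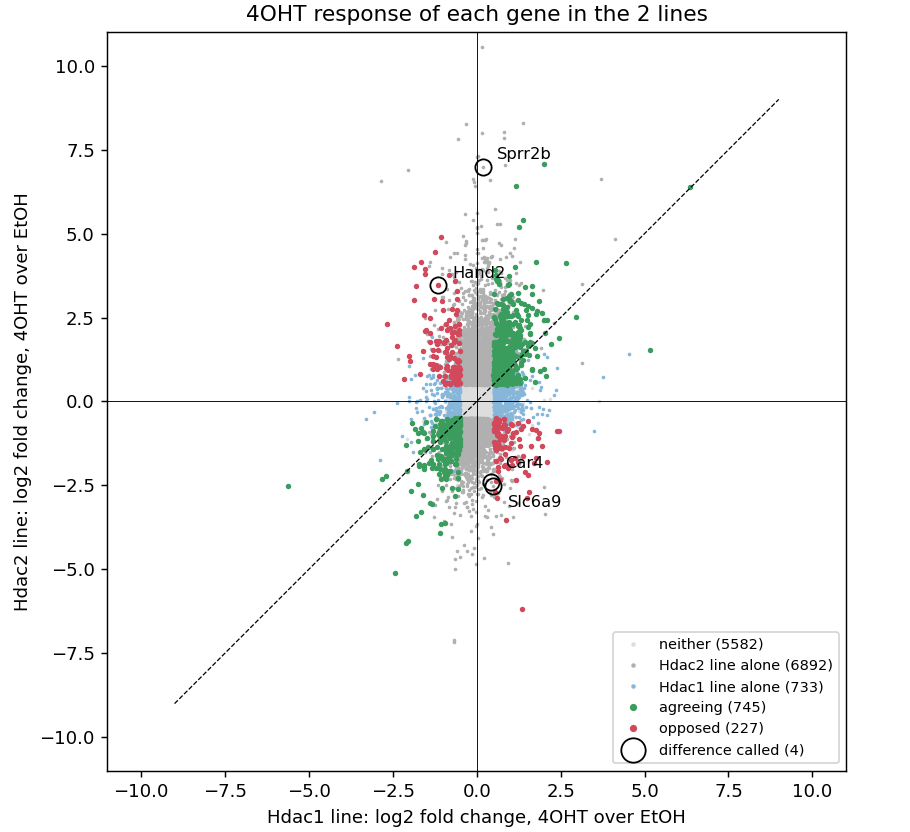
Log2 fold change of 4OHT over EtOH in the Hdac1 line (horizontal) against the Hdac2 line (vertical) for the 14179 genes tested, coloured by class, with the line of equal responses dashed. The cloud of points is taller than it is wide, and the 4 called genes (circles) lie far from the dashed line.

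Hand2 encodes a basic helix-loop-helix transcription factor of heart, limb and mesenchyme. Hdac1-line levels were 98 and 106 CPM with EtOH and 52.4 and 38.7 CPM with 4OHT. In the Hdac2 line it went from 6.94 and 11.8 CPM to 95.6 and 110 CPM. Each line's 4OHT libraries lay clear of its EtOH libraries, on opposite sides. The log2 responses were -1.17 ± 0.26 (SE) and 3.47 ± 0.29, a difference of -4.63 ± 0.38 (edgeR adjusted p = 0.0192). Slc6a9 and Car4 were also apart in both lines in opposite directions, with Hdac1-line responses of 0.49 and 0.42. Without the Y-positive library the difference was -5.06 (adjusted p = 0.0662). Among cardiomyocyte markers, Actn2 stood at 0 to 0.285 CPM, Myh6 at 0 to 1.25 CPM and Tnnt2 at 1.47 to 11.8 CPM over the 8 libraries.

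Sprr2b encodes a small proline-rich protein of the cornified envelope that barrier epithelia make. Its groups overlapped in the Hdac1 line, at 4.58 and 4.55 CPM with EtOH and 4.08 and 6.21 CPM with 4OHT. The Hdac2 line had next to none with EtOH, at 0.0648 and 0.0955 CPM, or 2 counts in all, and 11.6 and 10.3 CPM with 4OHT, or 266 counts. The 4OHT groups of the lines differed less than the EtOH groups did. That ratio in the Hdac2 line was 143 (exact 95% interval 39.1 to 1184, counting error only), and the fitted difference of -6.82 ± 0.57 (adjusted p = 0.0192) depends on how the few counts are treated.

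Slc6a9 encodes the glycine transporter GLYT1, which erythroid cells use to take up glycine for haem synthesis. Its levels were 17.7 and 16.6 CPM with EtOH and 23.9 and 24.1 CPM with 4OHT in the Hdac1 line, against 52.2 and 42.2 CPM and then 9.62 and 6.93 CPM in the Hdac2 line. The Hdac2 line therefore crossed from above the Hdac1 line to below it. The responses of 0.49 ± 0.20 and -2.51 ± 0.22 differed by 2.996 ± 0.30 (adjusted p = 0.0335). Slc6a9 overlaps B4galt2 on the opposite strand, which stood at 1.2 times its level, and the strand setting of the counting is not given.

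Car4 encodes a membrane-anchored carbonic anhydrase. The EtOH groups of the 2 lines were close, at 39.7 and 37 CPM and at 32.7 and 32.5 CPM. With 4OHT they parted, to 56.1 and 46.6 CPM in the Hdac1 line and 7.14 and 5.15 CPM in the Hdac2 line. The difference was 2.82 ± 0.28 (adjusted p = 0.0335), and both 4OHT groups lay outside the range of all EtOH libraries. Without the Y-positive library the differences of Sprr2b, Slc6a9 and Car4 were -7.06, 3.14 and 2.83, with adjusted p-values of 0.19.

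The stretches just upstream of the starts of Hand2, Sprr2b and Car4 are shown because these are called genes with a RefSeq start at or within 32 bases of the start in the counted table. They are the 250 bases before the RefSeq start on GRCm38.p6, all on the plus strand: chr8:57320733-57320982 for Hand2, chr3:92316455-92316704 for Sprr2b and chr11:84957504-84957753 for Car4. Capitals mark the GATA-type letters AGATAA (or TTATCT on the other strand) and the SMAD-type letters CAGAC (or GTCTG), searched on both strands with no overlapping matches.
Hand2: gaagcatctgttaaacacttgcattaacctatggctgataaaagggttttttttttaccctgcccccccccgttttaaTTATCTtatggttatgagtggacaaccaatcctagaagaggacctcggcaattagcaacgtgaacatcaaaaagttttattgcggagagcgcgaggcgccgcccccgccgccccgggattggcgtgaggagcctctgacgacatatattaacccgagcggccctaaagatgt
Sprr2b: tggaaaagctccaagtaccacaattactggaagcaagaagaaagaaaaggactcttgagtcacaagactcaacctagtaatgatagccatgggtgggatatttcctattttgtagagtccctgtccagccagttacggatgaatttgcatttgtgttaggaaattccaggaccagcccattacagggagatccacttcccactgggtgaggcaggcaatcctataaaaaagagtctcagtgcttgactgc
Car4: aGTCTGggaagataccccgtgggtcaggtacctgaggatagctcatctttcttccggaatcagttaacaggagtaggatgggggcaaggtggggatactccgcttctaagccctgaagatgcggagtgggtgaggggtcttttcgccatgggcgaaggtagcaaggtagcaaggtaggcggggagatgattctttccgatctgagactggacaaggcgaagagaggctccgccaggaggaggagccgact
Hand2 held 1 match to the GATA-type letters and Car4 1 match to the SMAD-type letters. Over 32536 promoter stretches of the same length, 9.97% held the first and 42.2% the second, and a match is letters only, not a bound site.

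Next in order of p within each direction, at edgeR adjusted p-values of 0.054 to 0.0616, were 4 genes with a higher response in the Hdac1 line and 4 with a lower one. In the first set, Fzd10, a Wnt receptor, stood at 81.7 and 67.6 CPM and then 88.4 and 100 CPM in the Hdac1 line, and at 122 and 129 and then 35.9 and 28.2 CPM in the Hdac2 line. Car2, a cytosolic carbonic anhydrase of red cells, was lower with 4OHT in both lines, at -0.56 and -2.62. Isoc1 gave -0.11 and -1.63, and Bcat1, which starts branched-chain amino acid breakdown, is described with the opposed genes. In the second set, Ltbp1, a matrix protein that stores latent TGF-β, stood at 31.7 and 44.7 and then 41.8 and 29.9 CPM in the Hdac1 line, with overlapping groups, and at 9.66 and 8.31 and then 80 and 67.9 CPM in the Hdac2 line. Gbp7, an interferon-induced GTPase, Cpt1a, the gate enzyme of mitochondrial fatty acid import, and Tns1, a focal adhesion protein, responded by 2.43, 2.31 and 3.64 in the Hdac2 line and by -0.09, 0.15 and 0.59 in the Hdac1 line. In all 8 the absolute response was larger in the Hdac2 line.

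**Figure D3:**
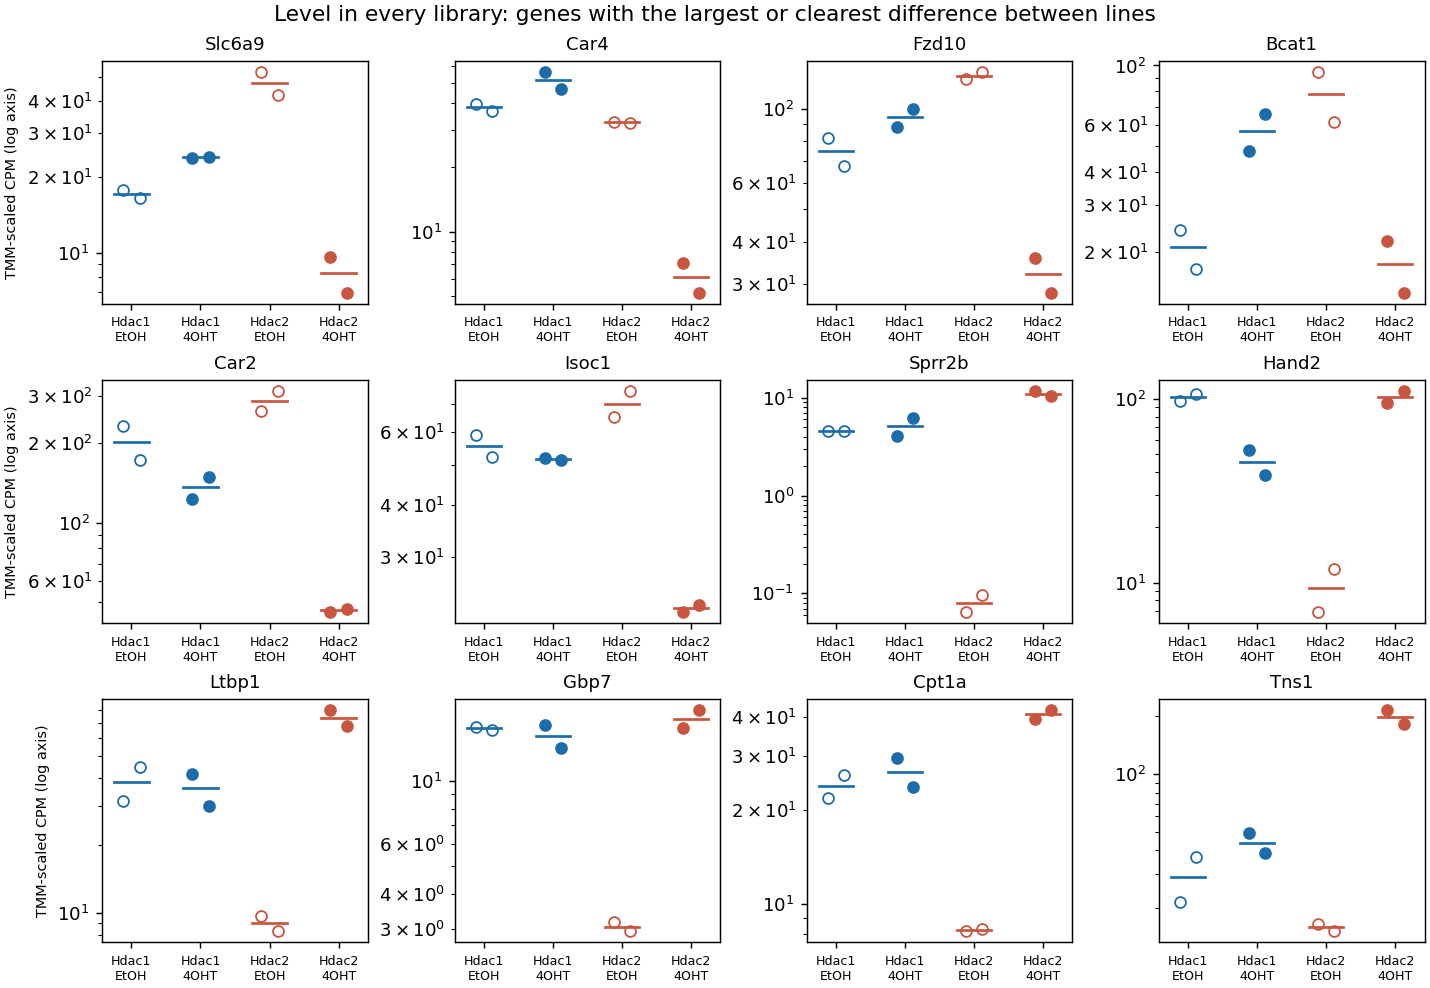
TMM-scaled CPM (log axis, scale differing by panel) in each library for the 4 called genes and the 8 next by p, with EtOH open, 4OHT filled and bars at group means. In every panel the step in the Hdac2 line (red) is larger on the log scale than that in the Hdac1 line (blue), and at Hand2, Bcat1, Slc6a9, Car4 and Fzd10 the groups are apart in both lines in opposite directions.

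Agreement and opposition were read from direction. A line counted as up or down at a gene where its log2 fold change was at least 0.5 and both 4OHT libraries lay beyond both EtOH libraries. By this measure 1024 genes (7.22%) were up and 681 (4.8%) down in the Hdac1 line, against 4029 (28.4%) and 3835 (27%) in the Hdac2 line. Of the genes where both lines met it, 745 agreed in direction, 501 up in both (3.53% of genes tested) and 244 down in both (1.72%). The other 227 were opposed, 105 up in the Hdac1 line and down in the Hdac2 line (0.741%) and 122 the reverse (0.86%). Across all genes the 2 responses had Pearson's r of 0.24 and Spearman's rho of 0.28, a description over genes that share libraries within each line. They had the same sign at 61.7% of genes.

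Agreement in direction was not equality. Among the 745 agreeing genes the response was larger in the Hdac2 line at 604, and 98 had a difference with p under 0.05. For 109 of them the 95% interval of the difference lay within -1 to 1, so that a 2-fold or greater gap lay outside it, and over all genes this held for 3588 (25.3%). Of the 227 opposed genes, 199 had p under 0.05 for the difference, and 57 moved at least 2-fold in each line. The class rule uses the same libraries as the test, and it requires opposed responses to lie apart and agreeing ones to share a direction. The 199 and the 98 follow in large part from that rule and are no separate support for the classes. Leaving out a library leaves fewer values to be set apart. Opposed counts were then 501 and 685 without EtOH replicate 1 of the Hdac1 line, 369 and 496 without its 4OHT replicate 1, 212 and 208 without the Y-positive EtOH replicate 2 of the Hdac2 line, 206 and 198 without 4OHT replicate 1 of that line, and 227 of the second kind without Hdac1 4OHT replicate 2. Agreeing counts were 1730 up and 1230 down without EtOH replicate 2 of the Hdac1 line and 1135 and 954 without its 4OHT replicate 2. Genes inside the -1 to 1 interval numbered 2306, 2376 and 2154 without Hdac1 4OHT replicate 1, Hdac2 EtOH replicate 2 and Hdac2 4OHT replicate 1.

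Opposed genes that were lower with 4OHT in the Hdac1 line and higher in the Hdac2 line were led by Fgl2, Hand2, Gja5, Ccdc18, Stxbp5 and Fmo1, ranked by the smaller of the 2 responses. Gja5, the arterial gap junction protein connexin 40, stood at 2.67 and 2.6 and then 1.73 and 0.854 CPM in the Hdac1 line, and at 1.36 and 1.24 and then 18.8 and 59.1 CPM in the Hdac2 line. The EtOH levels lay far closer together than the 4OHT levels, with a difference of -5.95 ± 0.85 (adjusted p = 0.0616). Fmo1, a flavin monooxygenase that oxidises xenobiotics, had overlapping EtOH groups, at 65.8 and 69.1 CPM and at 39.1 and 67.7 CPM, and reached 40.7 and 38.8 CPM in the Hdac1 line and 136 and 206 CPM in the Hdac2 line. Stxbp5, the secretory vesicle protein tomosyn, differed by -2.15 and Ccdc18, a coiled-coil protein, by -2.10. The prothrombinase-like gene Fgl2 stood below 6 CPM in 6 libraries and differed by -2.54 (adjusted p = 0.094).

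Opposed in the other direction were Bcat1, Nr4a1, Cercam, Ptgis, Gna15 and Pltp. Bcat1 went from 24.3 and 17.4 to 47.9 and 65.9 CPM in the Hdac1 line and from 94.4 and 61.4 to 22 and 14.1 CPM in the Hdac2 line. The EtOH group of the Hdac2 line overlapped the 4OHT group of the Hdac1 line, and the difference was 3.55 ± 0.45 (adjusted p = 0.0616). Ptgis, the prostacyclin synthase of vessel wall, went from 21.6 and 16 to 34.4 and 45.1 CPM and, in the other line, from 40.7 and 27.1 to 21.1 and 14.6 CPM. Its responses of 1.08 and -0.93 were nearly equal in size. The nuclear receptor Nr4a1 owed its Hdac1-line response to 1 library, with 9 and 8.2 CPM in EtOH and 9.66 and 42.4 CPM in 4OHT, and without 4OHT replicate 2 its difference of 2.93 was 1.49. Differences of Cercam (2.37), Gna15, a blood-cell G protein (1.80), and Pltp, the phospholipid transfer protein (2.21), had adjusted p-values of 0.0637 to 0.0868. Pltp overlaps Ctsa on the opposite strand, which stood at 5.71 times its level.

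Agreeing genes that were lower with 4OHT in both lines included Gucy1a3, Nfe2, Rgs10, Grap2 and Slc16a10. Grap2, the adaptor GADS, had the narrowest interval of these 5. Its levels were 58 and 52.9 and then 21 and 23.5 CPM in the Hdac1 line, and 37.1 and 41.5 and then 14.9 and 14.6 CPM in the Hdac2 line. The responses of -1.31 and -1.42 differed by 0.10 (95% interval -0.41 to 0.62), so a 2-fold gap lay outside it. Nfe2, a platelet and erythroid transcription factor, was lower in both lines but further in the Hdac2 line, at -1.39 and -3.02. Gucy1a3, a subunit of the nitric oxide receptor, gave -1.72 and -1.87. Rgs10, a brake on G-protein signalling, gave -1.44 and -1.35, and the amino acid transporter Slc16a10 gave -1.30 and -1.40.

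Genes higher with 4OHT in both lines were led by Apln, Ccl2, Ly6a, Camk1d, Cxcl1 and Gpr39. Apln, the endothelial tip-cell peptide apelin, went from 8.95 and 31.8 to 84.1 and 57 CPM in the Hdac1 line and from 21.3 and 11.2 to 106 and 106 CPM in the Hdac2 line. Groups were apart in both lines, and the spread of the EtOH libraries left an interval of -2.67 to 0.85 around the difference of -0.91. The chemokine genes Ccl2 and Cxcl1 responded by 1.58 and 1.49 in the Hdac1 line and by 2.03 and 2.43 in the Hdac2 line. Ly6a, which encodes the stem cell antigen SCA-1, gave 1.54 and 2.84. Camk1d, a calcium-dependent kinase, gave 1.52 and 2.21. Gpr39, a zinc-sensing receptor, had a difference of -0.03 that was positive, at 0.08, with upper quartile scaling and at 0.03 with library size only. None of these 6 had a difference with p under 0.05, and in all 6 the fold change was higher in the Hdac2 line.

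**Figure D4:**
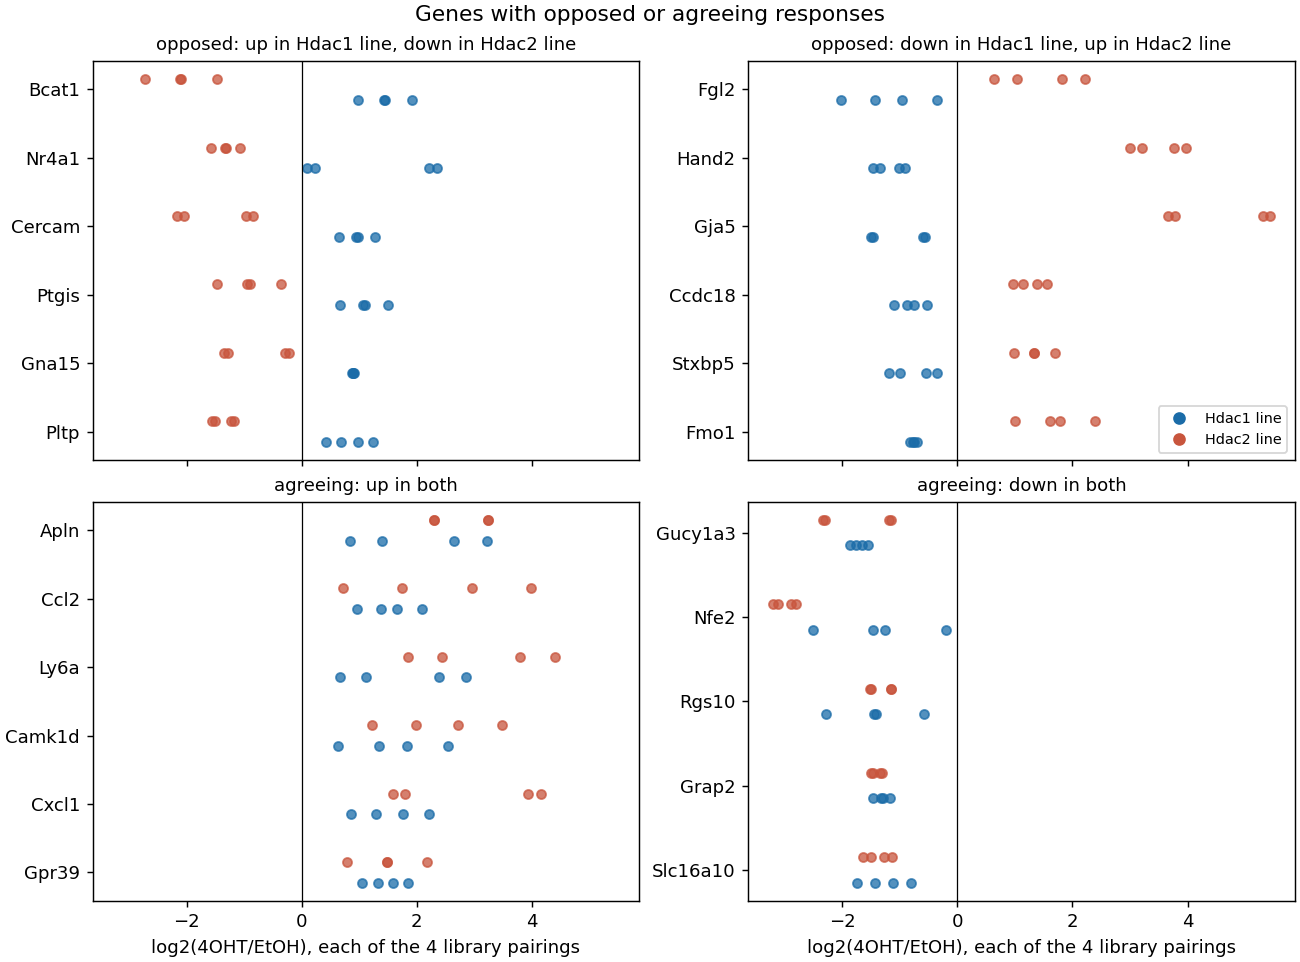
Log2 ratio of 4OHT to EtOH (horizontal axis) for each of the 4 pairings of libraries in the Hdac1 line (blue) and the Hdac2 line (red), at up to 6 leading genes of each opposed and agreeing class. Lines fall on opposite sides of 0 in the upper panels and on the same side in the lower ones, and Nr4a1 shows 2 separate pairs of points in the Hdac1 line.

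The targeted genes had no called difference. Hdac1 (chromosome 4, 129516104 to 129542713, mm10) was counted at 5.78 and 5.6 CPM with EtOH and 6.99 and 7.12 CPM with 4OHT in the Hdac1 line, and at 7.45 and 7.16 and then 5.12 and 4 CPM in the Hdac2 line. The groups of each line were apart, in opposite directions, and neither in the direction of a loss in its own line. The difference was 0.99 (interval 0.22 to 1.75, adjusted p = 0.119). Gm10093, a near-identical copy of Hdac1, was counted at 109 to 156 CPM, so the split of reads between them is uncertain and these counts check nothing. Hdac2 (chromosome 10, 36974544 to 37001889) stood at 148 and 142 then 152 and 140 CPM in the Hdac1 line and at 165 and 151 then 149 and 149 CPM in the Hdac2 line, with a difference of 0.09 (-0.37 to 0.55). The Hdac2-line response of -0.08 did not pass edgeR's test (adjusted p = 0.672), so the counts per gene show no loss of Hdac2 transcript in the line labelled for it, and whether the lox-flanked part was lost cannot be read from them. All responses here are those of the libraries as labelled. Among 31 tested genes of the Sin3, NuRD and CoREST complexes and class I HDACs, 4 had a higher and 6 a lower response in the Hdac1 line at p under 0.05. The shares of all genes were 12.5% and 15.5%, and these counts do not set the list apart from them. The remodeller Chd4 gave -0.09 and 0.99, the CoREST subunit Phf21a -0.08 and 1.06 and the Sin3 subunit Sap130 0.02 and 0.90. Median responses of the list were -0.05 and -0.02, as for all genes (-0.02 and -0.02), and 14 of the 31 intervals lay within -1 to 1. The 4 became 6 without Hdac1 EtOH replicate 1, 2 without Hdac1 EtOH replicate 2, Hdac1 4OHT replicate 2 or either Hdac2 EtOH library, and 1 without Hdac2 4OHT replicate 2. The 6 became 3 without Hdac1 4OHT replicate 2 or Hdac2 4OHT replicate 2.

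In the TGF-β pathway the medians of ligands, receptors and target genes were higher in the Hdac2 line than in the Hdac1 line. For receptors and Smads, however, the ranges over library pairings overlapped. Of 16 tested ligands and activators, 3 were up and 0 down in the Hdac1 line and 12 up and 3 down in the Hdac2 line, with medians of 0.23 and 1.56. The same sign in both lines was seen at 10 of the 16 (62.5%, against 61.7% of all genes). The Hdac1-line median ran from -0.21 to 0.71 over the pairings and was 0.76 without Hdac1 EtOH replicate 2, 0.05 without Hdac1 EtOH replicate 1, 0.40 without Hdac1 4OHT replicate 2 and -0.068 without Hdac1 4OHT replicate 1. The response was lower in the Hdac1 line at p under 0.05 for 5 of them and higher for 0, and for 8 without Hdac1 EtOH replicate 1 or Hdac1 4OHT replicate 1. Among those with the smallest p were the storage protein Ltbp1 (-0.09 and 3.04) and the activin subunit Inhba (0.31 and 4.27). Thbs1, thrombospondin 1, which releases TGF-β from its latent form, went from 162 and 453 to 590 and 227 CPM in the Hdac1 line, with overlapping groups, and from 165 and 104 to 1458 and 1148 CPM in the Hdac2 line. The ligand Tgfb2 was up in both lines, at 0.62 and 1.27 with a difference of -0.65 (-1.49 to 0.19). Tgfb1 was at -0.35 and -0.50 with a difference of 0.15 (-0.86 to 1.16).

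Receptors and Smads had medians of 0.23 and 0.62 over 21 tested genes, of which 1 was up in the Hdac1 line and 13 in the Hdac2 line. Tgfbr2, the type II receptor, stood at 113 and 126 then 104 and 112 CPM in the Hdac1 line, and at 81.7 and 111 then 214 and 300 CPM in the Hdac2 line. The difference was -1.56 ± 0.31 (adjusted p = 0.0719). Eng, the co-receptor endoglin of endothelium, responded by 0.21 and 1.88, and the inhibitory Smad7 by -0.01 and 1.53. Differences were smaller at the type I receptor gene Tgfbr1 and at the signal-carrying Smads. Tgfbr1 gave -0.04 and 0.15, Smad2 0.29 and 0.59, Smad3 0.27 and 0.49 and Smad4 0.29 and 0.29. Differences for these 4 ran from -0.30 to -0.01, and the interval lay within -1 to 1 for Tgfbr1 (-0.93 to 0.56), Smad3 (-0.68 to 0.23) and Smad4 (-0.61 to 0.59). Smad4 turned positive, at 0.11, with upper quartile scaling and at 0.06 with library size only. Medians of receptors and Smads over the 4 library pairings ran from -0.29 to 0.73 in the Hdac1 line. In the Hdac2 line they ran from 0.54 to 0.81, so the ranges overlapped. Without Hdac1 EtOH replicate 2 the medians of the lines were 0.52 and 0.62. With all libraries, 3 of the 21 had a lower and 1 a higher response in the Hdac1 line at p under 0.05, against 15.5% and 12.5% of all genes.

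TGF-β-responsive genes kept a positive median in every library pairing of both lines. Of 30 tested, 12 were up in the Hdac1 line, 18 in the Hdac2 line and 8 in both, with 0 down in either. Their median response in the Hdac1 line was 0.57 (0.49 to 0.65 over the 4 library pairings) and in the Hdac2 line 1.21 (0.96 to 1.51). Between libraries of like agent in the Hdac1 line the list's median log2 ratios were 0.13 for EtOH replicate 2 over 1 and -0.03 for 4OHT replicate 1 over 2. Loxl2, a collagen cross-linking enzyme, went from 28.6 and 27.2 to 46.2 and 50.1 CPM in the Hdac1 line and from 14.6 and 17.5 to 120 and 78.2 CPM in the Hdac2 line. Timp3, an inhibitor of matrix proteases, went from 196 and 261 to 368 and 373 CPM and from 228 and 203 to 964 and 850 CPM. Both were up in both lines, with differences of -1.84 and -1.38. Col3a1, fibrillar collagen III, stood at 3.75 to 6.83 CPM in the Hdac1 line and went from 7.39 and 5.54 to 51.5 and 33.1 CPM in the Hdac2 line. Acta2, smooth muscle actin, gave 0.38 and 1.55, and fibronectin Fn1 0.48 and 1.54. In all, 9 of the 30 had a lower response in the Hdac1 line at p under 0.05 and 0 a higher one, against 15.5% and 12.5% of all genes. Neither count held without the Y-positive EtOH replicate 2 of the Hdac2 line. The medians of the list were then 0.575 in the Hdac1 line and 0.997 in the Hdac2 line. The summed level of smooth muscle and mesenchyme markers was higher with 4OHT in both lines, with groups apart, at 2210 and 1997 then 3004 and 2885 CPM in the Hdac1 line and at 2450 and 1781 then 7166 and 4917 CPM in the Hdac2 line. Acta2 makes up much of it, and its part in the result was not tested.

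Of 21 BMP pathway genes, 5 had a lower and 1 a higher response in the Hdac1 line at p under 0.05, against 15.5% and 12.5% of all genes. Bmp2, a ligand of vessel wall and mesoderm, stood at 132 and 208 then 172 and 217 CPM in the Hdac1 line, and at 158 and 144 then 71.5 and 60.5 CPM in the Hdac2 line, a difference of 1.39. Bmp6 went the other way, from 19.4 and 20.9 to 147 and 207 CPM in the Hdac2 line. In the Hdac1 line Bmp6 was high in EtOH replicate 2 and 4OHT replicate 1 (123 and 136 CPM) and low in the others (29 and 44.5 CPM), so its groups overlapped. The dominant-negative helix-loop-helix gene Id2 gave -0.48 and 0.43. Lower responses numbered 10 without Hdac1 EtOH replicate 1, 9 without Hdac1 4OHT replicate 1, 2 without its 4OHT replicate 2 and without Hdac2 EtOH replicate 2, 1 without Hdac1 EtOH replicate 2, and 0 without Hdac2 EtOH replicate 1 or Hdac2 4OHT replicate 2.

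Most endothelial identity genes were higher with 4OHT in the Hdac2 line. Of 30 tested, 6 were up and 0 down in the Hdac1 line and 21 up and 2 down in the Hdac2 line, with medians of 0.18 and 0.82. At p under 0.05, 10 had a lower and 1 a higher response in the Hdac1 line, against 15.5% and 12.5% of all genes. Cdh5, VE-cadherin, went from 786 and 745 to 2342 and 3026 CPM in the Hdac2 line, while the Hdac1 line held 1296 and 2151 and then 2471 and 1664 CPM. The VEGF receptor Kdr gave 0.06 and 1.16, Pecam1 0.35 and 1.23 and Tek, the angiopoietin receptor, -0.01 and 0.74. Clec14a, an endothelial lectin, was nearer to opposition, at -0.37 and 1.93 (difference -2.30 ± 0.36, adjusted p = 0.0637), and Vwf, the platelet-capturing factor, gave -0.22 and 1.95. The count of 10 was 6 without Hdac2 EtOH replicate 1 and 5 without Hdac2 4OHT replicate 2.

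In the arterial and Notch list, libraries of like agent differed in the Hdac1 line. Jag1, a Notch ligand, stood at 9.5 and 41.2 then 46.8 and 12.6 CPM in the Hdac1 line, and at 3.95 and 3.44 then 81.3 and 66.9 CPM in the Hdac2 line. Efnb2, the arterial ephrin, showed the same split, with 105 and 226 then 167 and 79.3 CPM, and a Hdac2-line response of 1.97. In the Hdac1 line 0 of 16 tested members were up and 4 down, against 8 up and 1 down in the Hdac2 line. The list's Hdac1-line median was 0.03, but ran from -0.68 to 0.31 over the pairings and was -0.07 at the lowest among the scalings and tools. Members with a lower response in the Hdac1 line at p under 0.05 numbered 5 of the 16, against 15.5% of all genes.

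Blood transcription factors had a lower median response in the Hdac1 line than in the Hdac2 line. Of 25 tested, 9 were down and 1 up in the Hdac1 line, with a median of -0.54 (-0.60 to -0.32 over the pairings). In the Hdac2 line 8 were down and 6 up, with a median of -0.14 (-0.33 to -0.08 over the pairings), so the ranges overlapped slightly. Runx1, the master regulator of the transition, stood at 185 and 256 then 146 and 112 CPM in the Hdac1 line, and at 84.9 and 101 then 65.8 and 80.4 CPM in the Hdac2 line. It was lower with 4OHT in both, at -0.77 and -0.35, and its difference of -0.43 (-1.16 to 0.31) did not pass. Tal1, which specifies blood and endothelium, was down in both (-0.66 and -1.18), as were Ikzf1, Myb and Nfe2. Kit, the stem cell factor receptor, was down in both at -0.88 and -0.53. Gfi1 gave -0.20 and -0.04, with a difference of -0.16 (-1.27 to 0.96).

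Some other blood factors, named by smallest p or as anchors, gave unlike responses in the 2 lines. Gfi1b stood at 47.1 and 24.1 then 18.8 and 33.8 CPM in the Hdac1 line, and at 41.5 and 46.5 then 7.06 and 6.49 CPM in the Hdac2 line (difference 2.26 ± 0.52, adjusted p = 0.0804). Gata1, the erythroid and megakaryocyte regulator, gave -0.68 and -3.33. Lmo2, the bridge of the Tal1 complex, was on opposite sides at 0.53 and -2.01, though its Hdac1-line groups overlapped. Mecom, a regulator of stem cells and arterial endothelium, gave -0.62 and 3.86, from 3.82 and 9.26 to 72 and 114 CPM in the Hdac2 line. Gata2 gave -0.29 and 0.77 and Spi1, PU.1 of myeloid cells, -0.64 and 0.37. In total 5 of 25 members had a higher and 3 a lower response in the Hdac1 line at p under 0.05, against 12.5% and 15.5% of all genes. Counts this small do not set the list apart from all genes. The 5 became 3 without Hdac1 EtOH replicate 2 and 2 without Hdac1 4OHT replicate 2, Hdac2 EtOH replicate 2 or either Hdac2 4OHT library. The 3 became 5 without Hdac1 EtOH replicate 2 and 1 without Hdac1 4OHT replicate 2.

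Genes of mature blood lineages followed these regulators unevenly. Erythroid genes had medians of -0.75 and -1.73, and of 18 tested 4 were down in the Hdac1 line and 11 in the Hdac2 line. Embryonic globin Hbb-bh1 stood at 461 and 173 then 90.1 and 245 CPM in the Hdac1 line, overlapping, and at 937 and 849 then 138 and 88.5 CPM in the Hdac2 line. The haem enzyme gene Alas2 gave -0.29 and -2.45, and overlaps Apex2 at 1.47 times its level, while the water channel Aqp1 gave -0.28 and 1.71. Over the Hdac1-line pairings the erythroid median ran from -1.68 to -0.03. Over those of the Hdac2 line it ran from -2.20 to -0.94, so the ranges overlapped. Of 14 megakaryocyte genes, 7 were down and 0 up in the Hdac1 line, and 3 down and 4 up in the Hdac2 line (medians -0.61 and -0.20). The megakaryocyte markers Pf4 and Gp9 were low, at 0.569 to 2.1 CPM and 0.2 to 1.88 CPM over the 8 libraries. At p under 0.05 the response was lower in the Hdac1 line for 5 of the 14, Vwf and Thbs1 among these, and higher for 1, Itga2b. The 5 became 3 without Hdac1 4OHT replicate 2, Hdac2 EtOH replicate 2 or Hdac2 4OHT replicate 1. Itga2b, the platelet integrin CD41 that marks the earliest blood cells, stood at 169 and 109 then 99 and 169 CPM and, in the Hdac2 line, at 188 and 152 then 48.3 and 42.4 CPM. Its difference was 1.86 ± 0.43 (adjusted p = 0.0804). Myeloid genes had medians of -0.42 and 1.20, and neither was steady. The first was 0.23 without Hdac1 EtOH replicate 1, -0.70 without Hdac1 EtOH replicate 2, -0.18 without Hdac1 4OHT replicate 1 and -0.26 without Hdac1 4OHT replicate 2. The second was 0.60 without Hdac2 EtOH replicate 2, 0.63 without Hdac2 4OHT replicate 1 and 1.88 without Hdac2 EtOH replicate 1. The leukocyte integrin Itgam stood at 0.114 to 0.655 CPM in the Hdac1 line and went from 1.3 and 0.0955 to 14.7 and 15.5 CPM in the Hdac2 line, Csf1r from 1.81 and 0.478 to 11.6 and 6.58 CPM and Ptprc, CD45, from 0.713 and 0.287 to 2.95 and 4.18 CPM. The summed level of 22 myeloid markers went from 231 to 242 CPM to 372 to 379 CPM there, and from 180 to 284 CPM to 192 to 218 CPM in the Hdac1 line. The part of such cells in other results was not tested.

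ATF4 stress genes, which serve amino acid supply under stress, were the list with the largest median difference among those of 10 or more tested genes. Medians were 0.01 in the Hdac1 line (-0.04 to 0.05 under other scalings and tools) and -1.64 in the Hdac2 line, and 15 of 22 had a higher response in the Hdac1 line at p under 0.05 with 0 lower. This count was 14 to 19 without each of the 8 libraries in turn. Psat1, of serine synthesis, stood at 416 and 196 then 219 and 360 CPM in the Hdac1 line, and at 748 and 675 then 121 and 105 CPM in the Hdac2 line (difference 2.58 ± 0.52, adjusted p = 0.0731). The amino acid transporter gene Slc7a5 gave 0.06 and -1.76 and mitochondrial Shmt2 -0.23 and -2.01. Ddit4 and Vldlr were opposed, up in the Hdac1 line (0.79 and 0.61) and down in the Hdac2 line (-0.77 and -0.80). Libraries of like agent differed in the Hdac1 line for this list too, by a median of -0.76 for EtOH replicate 2 over 1, and its median ran from -0.73 to 0.77 over the pairings there. In the Hdac2 line it ran from -1.77 to -1.37.

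Cholesterol synthesis genes looked alike but were less settled. Medians were 0.10 and -1.03, and 7 of 23 had a higher response in the Hdac1 line at p under 0.05, against 12.5% of all genes. Dhcr7, the last enzyme of the pathway, stood at 195 and 81.7 then 81.4 and 169 CPM in the Hdac1 line and at 287 and 347 then 112 and 80.9 CPM in the Hdac2 line. Msmo1 gave 0.18 and -1.24 and Acat2 0.10 and -1.26. The count of 7 was 17 without Hdac1 EtOH replicate 1, 16 without Hdac1 4OHT replicate 1, 3 without Hdac2 4OHT replicate 1 and 0 without any other library. Of 23 glycolysis and hypoxia genes, 7 had a higher and 2 a lower response in the Hdac1 line at p under 0.05, against 12.5% and 15.5% of all genes. The oxygen sensor Egln3 gave 0.08 and -1.23, and the phosphofructokinase genes Pfkp and Pfkl 0.74 and -0.47 and 0.30 and -0.75. Pfkp overlaps Pitrm1 at 2.38 times its level. The count of 7 was 12 without Hdac1 EtOH replicate 1 and 4 without Hdac1 4OHT replicate 2, Hdac2 EtOH replicate 2 or Hdac2 4OHT replicate 2.

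DNA replication genes were mostly lower with 4OHT in the Hdac2 line. Of 29 DNA replication genes, 22 were down there, against 27% of all genes, and 0 were down in the Hdac1 line (medians -0.72 and -0.22). In the Hdac2 line 20 were called lower by edgeR's test, as were 2433 of all 14179 genes. At p under 0.05, 15 had a higher response in the Hdac1 line with 0 lower, against 12.5% and 15.5% of all genes. Cdt1, which licenses origins, stood at 152 and 104 then 117 and 145 CPM, and in the Hdac2 line at 134 and 143 then 61.2 and 55 CPM. Gins1 gave -0.33 and -1.45 and Cdc6 -0.14 and -1.11. For 11 of the 29 the interval of the difference lay within -1 to 1. The count of 15 was 20 without Hdac1 EtOH replicate 1, 9, 6, 5, 6 and 7 without Hdac1 EtOH replicate 2, Hdac1 4OHT replicate 2, Hdac2 EtOH replicate 2, Hdac2 4OHT replicate 1 and Hdac2 4OHT replicate 2. Of 24 mitosis genes, 14 were down and 3 up in the Hdac2 line, against 27% and 28.4% of all genes, and 0 either way in the Hdac1 line (medians -0.55 and -0.16). At p under 0.05, 7 of the 24 had a higher and 3 a lower response in the Hdac1 line, against 12.5% and 15.5% of all genes. The count of 3 does not set the list apart from all genes. The 3 with a lower response were Mki67, of the chromosome surface, and the kinetochore genes Cenpe and Cenpf. Mki67 went from 81.9 and 120 to 387 and 720 CPM in the Hdac2 line and stood at 557 and 871 then 585 and 407 CPM in the Hdac1 line, a difference of -2.98 ± 0.53 (adjusted p = 0.0682). The 3 stayed at 3 without each library in turn, while the 7 became 12 without Hdac1 EtOH replicate 1 and 4 without Hdac1 4OHT replicate 2, Hdac2 EtOH replicate 2 or Hdac2 4OHT replicate 1.

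Among cell cycle regulators, Ccnd1, cyclin D1, was the reverse of the common pattern, with the larger response in the Hdac1 line. It stood at 148 and 152 CPM with EtOH and 484 and 629 CPM with 4OHT there, and at 651 and 380 then 762 and 555 CPM in the Hdac2 line. The Hdac2-line groups overlapped and lay near the Hdac1-line 4OHT level. The responses were 1.89 and 0.35, a difference of 1.54 ± 0.40 (adjusted p = 0.0876). The p53 targets leaned that way as a list. Of 20 tested, 10 were up in the Hdac1 line and 0 down, with a median of 0.71 (0.33 to 0.94 over the pairings), and 3 were up and 3 down in the Hdac2 line, with a median of 0.12 (-0.37 to 0.70 over the pairings, a range that overlaps that of the Hdac1 line, and -0.01 to 0.18 under other scalings and tools). The Hdac2-line median was 0.53 without Hdac2 EtOH replicate 1, -0.13 without its EtOH replicate 2, -0.11 without its 4OHT replicate 1 and 0.37 without its 4OHT replicate 2. Cdkn1a, the p21 inhibitor of the cell cycle, gave 1.10 and 0.01, Mdm2, which degrades p53, 0.82 and 0.19, and Plk2 1.28 and 0.48. The apoptosis gene Bbc3 gave 0.29 and -0.88, Bax 0.36 and -0.59 and the stress sensor Sesn2 0.71 and -0.42. A higher response in the Hdac1 line had p under 0.05 at 4 of the 20 and a lower one at 0. This count of 4 was 9 without the Y-positive Hdac2 EtOH replicate 2 and 2 without Hdac1 4OHT replicate 2 or Hdac2 4OHT replicate 2.

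Interferon-stimulated genes were the list most often on opposite sides of 0. Only 5 of 18 tested genes had the same sign in both lines, against 61.7% of all genes. Medians were -0.06 and 1.22, and the Hdac1-line median ran from -0.37 to 0.18 over the pairings, on both sides of 0. By the class rule only 2 of the 18 were opposed and 3 were up in both lines. In all, 13 were up in the Hdac2 line and 3 in the Hdac1 line. At p under 0.05, 12 had a lower response in the Hdac1 line with 0 higher, against 15.5% and 12.5% of all genes. Ddx58, the RNA sensor RIG-I, stood at 6.38 and 9.9 then 13.8 and 11.3 CPM in the Hdac1 line, and at 3.82 and 3.82 then 28.3 and 29.3 CPM in the Hdac2 line (difference -2.29 ± 0.36, adjusted p = 0.0637). Ifih1, the sensor MDA5, was nearer to opposition, at -0.49 and 1.82, and Parp14 agreed in direction at 0.52 and 3.21. Ifit2 and Usp18 were opposed, at -0.59 and 1.20 and at -1.13 and 1.81. The count of 12 was 7 without Hdac2 EtOH replicate 2 and 8 to 10 without each other library in turn.

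Of 22 immediate early genes, 2 had a higher and 2 a lower response in the Hdac1 line at p under 0.05, against 12.5% and 15.5% of all genes. Medians were 0.48 in the Hdac1 line and 0.28 in the Hdac2 line. The members named here went both ways. Egr1 stood at 34.5 and 31 then 24 and 28.2 CPM in the Hdac1 line and at 22.5 and 18.6 then 57.2 and 86.6 CPM in the Hdac2 line, and Fos at 8.35 to 16.7 CPM against 13.7 and 12.2 then 72.6 and 73.2 CPM. Both were higher with 4OHT in the Hdac2 line alone, with differences of -2.13 and -2.17. Nr4a1 was opposed the other way, with a Hdac1-line response that rested on 4OHT replicate 2 alone. Of 10 oestrogen-responsive genes, listed because 4OHT binds oestrogen receptors, 2 had a higher and 1 a lower response in the Hdac1 line at p under 0.05. Counts this small do not set the list apart from all genes. The chemokine gene Cxcl12 gave 0.65 and 3.61 and Igfbp4 0.41 and -0.77.

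Lists of cells that a differentiating culture could hold differed between the lines too. Of 16 cardiomyocyte genes, 8 had a lower response in the Hdac1 line at p under 0.05 and 0 a higher one, against 15.5% and 12.5% of all genes. Medians were -0.17 and 1.28. Cardiac actin Actc1 stood at 8.66 to 9.11 CPM in the Hdac1 line and went from 6.03 and 5.63 to 13.7 and 14.4 CPM in the Hdac2 line. The count of 8 was 4 without Hdac1 EtOH replicate 2 and 5 without Hdac1 4OHT replicate 2 or without Hdac2 EtOH replicate 1, Hdac2 EtOH replicate 2 or Hdac2 4OHT replicate 2. Of 7 visceral endoderm genes 4 had a lower response in the Hdac1 line at p under 0.05, among them Dab2 (-0.17 and 2.12) and Foxa2 (-0.89 and 3.35). Yet the defining marker Ttr was at 0 to 0.164 CPM and Afp at 0 to 1.32 CPM. The count of 4 was 2 without Hdac1 EtOH replicate 2, Hdac2 EtOH replicate 2 or Hdac2 4OHT replicate 2. Pluripotency markers Pou5f1 and Nanog stayed at or below 1.05 CPM, with Lin28a at 0.28 and -0.92 and Dppa4 at -0.28 and -2.53. Neuronal Dcx was at 0 counts in all 8 libraries, but Tubb3 stood at 26.2 to 80.5 CPM. The summed level of 19 neuronal markers went from 378 and 666 to 894 and 773 CPM in the Hdac1 line. In the Hdac2 line it went from 317 and 210 to 712 and 849 CPM. Nes, also expressed in endothelium, gave 0.65 and 2.38. The part of such cells in the differences was not tested.

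**Figure D5:**
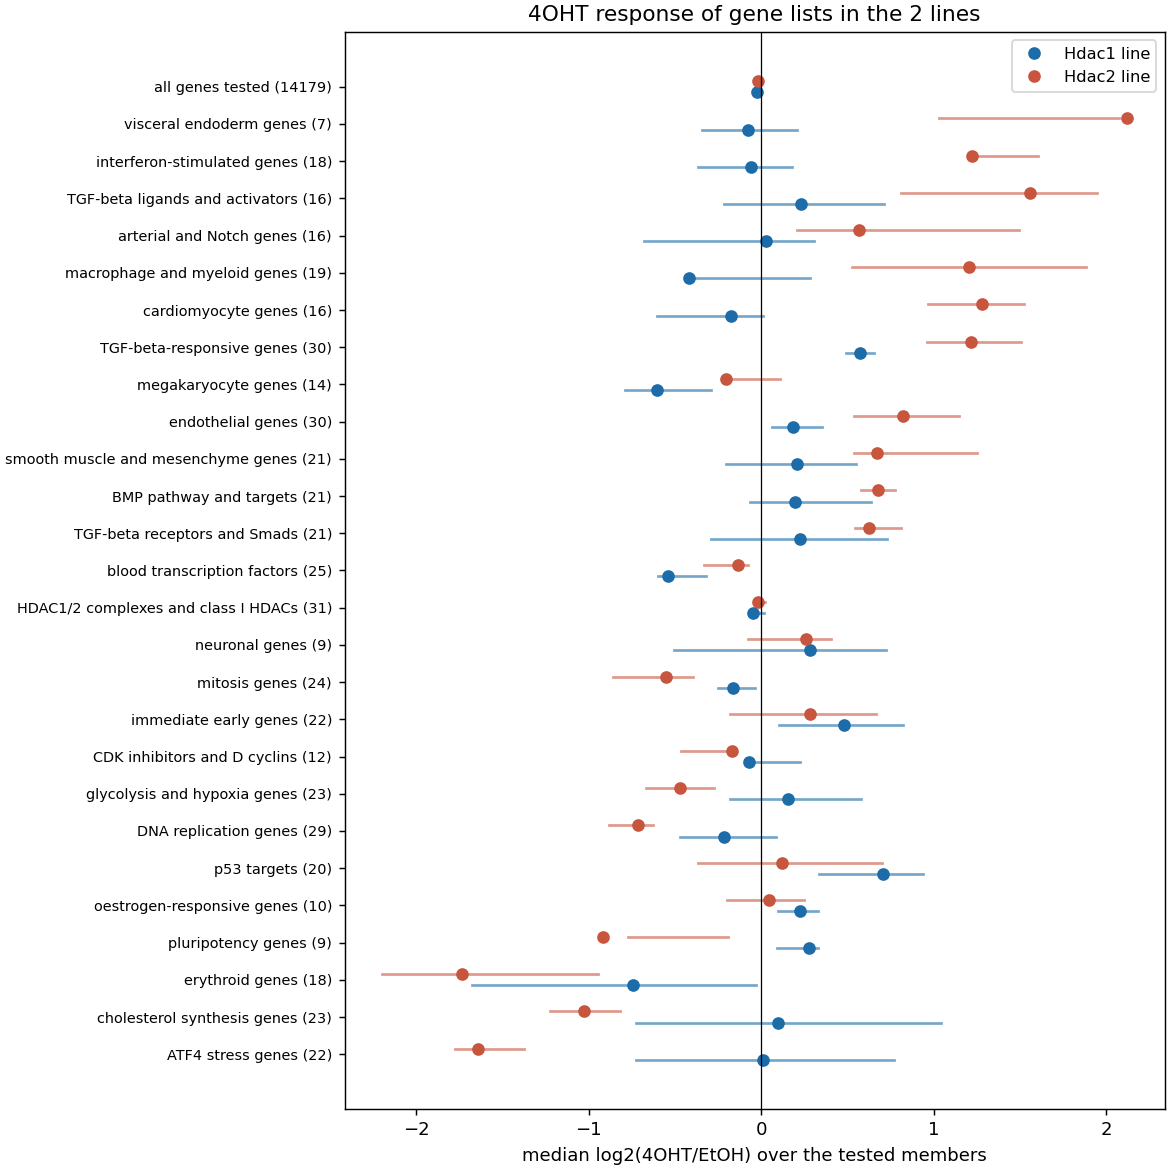
Median log2 fold change of 4OHT over EtOH (horizontal axis) over the tested members of each list (number in brackets) in the Hdac1 line (blue) and the Hdac2 line (red), ordered by the median difference; thin lines span the medians of the 4 library pairings and may miss the point where counts are low. Points lie apart at both ends of the plot, and the Hdac1-line spans cross 0 for ATF4 and cholesterol synthesis genes but not for TGF-β-responsive genes, p53 targets or blood transcription factors.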

How the data were processed

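RNA was sequenced from 8 libraries, 2 in each of 4 groups, and the deposited values are whole-number read counts per gene, which the authors made on mm10. Tools named, with no role, in the submitters' processing notes are edgeR 3.8.5 on R 3.1.0, the aligner Bowtie2 2.2.1, bcl2fastq 2.17.1.14 and the SAMtools suite 0.1.19. No source used here gives the counting program, its strand setting or its treatment of multiply mapped reads. From these counts, edgeR 4.0.16 (R 4.3.3) with TMM scaling, filterByExpr (14179 of 41128 genes, holding 99.9% of counts) and robust quasi-likelihood fits of group means gave the contrast, with Benjamini-Hochberg adjustment over all genes tested, and every adjusted p in the text comes from that test unless DESeq2 or limma-voom is named. Standard errors were derived from the F statistic, and intervals cover 95%. The script was tested on simulated data.

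Members and lists were chosen with earlier results of these data known. Genes named were the targets, the 6 genes in each direction by the contrast (mean CPM of at least 5, library pairings apart, the places beyond the called genes filled in order of p), the 6 leading genes of each class, 3 members of each list by p and a list of anchors, a few of which are not reported here. Gm10093, Ddit4, Vldlr, Ikzf1, Myb, Ifit2, Usp18, Csf1r, Cdkn1a, Mdm2, Plk2 and the markers at low level were named after their values were seen. Alternatives were other scalings, no filter, DESeq2 1.42.0, limma-voom (limma 3.58.1), replicate blocks, other class rules and each library left out. Promoter stretches came from RefSeq, GRCm38.p6, matched by symbol for 4 of the 4 called genes. Replicate numbers did not pair libraries: deviations of same-numbered libraries correlated at -0.69 in the Hdac1 line and 0.26 in the Hdac2 line.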

Additional observations from a re-analysis of the deposited data

Results flagged for a closer look

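At 4 genes the responses of the lines differed by a test of the difference itself (edgeR's quasi-likelihood test, adjusted p of 0.0192 for Sprr2b and Hand2 and 0.0335 for Slc6a9 and Car4). The log2 differences were -6.82 at Sprr2b, -4.63 at Hand2, 2.996 at Slc6a9 and 2.82 at Car4. Hand2 was lower with 4OHT in 2 of 2 Hdac1-line libraries and higher in 2 of 2 Hdac2-line libraries.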

How the results depend on the processing

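The count of 4 called genes (2 higher and 2 lower in the Hdac1 line) was 11 (3 and 8) with library size only, 1187 (416 and 771) with no filter, 1781 (553 and 1228) with DESeq2, 1 (0 and 1) with limma-voom and 19 (5 and 14) with group weights. It stayed at 4 with RLE scaling and was 5 with upper quartile scaling, which moved the median difference of all genes from 0.01 to 0.14. The replicate block gave 0 calls (0 higher, 0 lower; 3288 genes at an unadjusted p under 0.05) with 1 term and 0 (0 and 0; 2187 genes) with a term per line, where 1957 intervals lay within -1 to 1; numbers crossed in the Hdac1 line, an alternative chosen after seeing the data, gave 5852 (2788 and 3064). Without each library in turn, calls ran from 0 to 3740 (0 to 1671 higher, 0 to 2069 lower), intervals within -1 to 1 from 2154 to 4390, opposed genes from 114 to 501 and from 163 to 685, agreeing genes from 439 to 1730 up and from 210 to 1230 down, and genes at an unadjusted p under 0.05 from 2213 to 5988. Opposed counts of 105 and 122 and agreeing counts of 501 and 244 were 192, 233 and, for down in both, 376 with no filter, 21, 36, 117 and 53 with responses of at least 1, and 231, 297, 846 and 475 where libraries need not be apart. Fewer libraries or no separation relax the class rule by construction; other causes were not tested.

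Of the values of the difference at named genes under these settings, 39 changed sign. These were, with upper quartile scaling, Rgs10 (0.034), Gpr39 (0.083) and Smad4 (0.11), with library size only Gpr39 (0.032) and Smad4 (0.060), and for Gpr39 0.021 with limma-voom, 0.024 with group weights and 0.012 with the replicate block of 1 term. Without each library in turn, differences ran from -0.53 to 0.63 at Gucy1a3, -0.62 to 0.39 at Rgs10, -0.18 to 0.44 at Slc16a10, -1.54 to 0.29 at Apln, -2.02 to 0.26 at Ccl2, -1.65 to 0.056 at Camk1d, -0.46 to 0.36 at Gpr39, -0.97 to 2.82 at Ddx3y, -0.44 to 0.032 at Tgfbr1, -0.84 to 0.10 at Kit, -0.68 to 0.24 at Gfi1, -0.20 to 0.54 at Tgfb1, -0.19 to 0.16 at Smad4 and -0.60 to 0.084 at Smad2. With 2 libraries a group, the median standard error of the difference was 0.36.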
